A study of Homo sapiens with 26 samples.

Results

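ZBTB24 was added to HCT116 cells as a FLAG-tagged protein, and the RNA of those lines was compared with that of lines carrying the FLAG tag alone. The comparison covers 4 of the 26 samples of the series and 1754 listed loci, taken as every row of the authors' deposited table for it. HCT116 is a human colorectal cancer cell line. ZBTB24 is a BTB zinc finger protein that binds DNA, and its loss in people causes ICF syndrome, an immunodeficiency with unstable centromeres and loss of DNA methylation at repeats, which mutations of the DNA methyltransferase DNMT3B also cause. Proteins of the BTB zinc finger family act at promoters as repressors or activators. The comparison asks which transcripts differ when more of the factor is present.

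The control group was FLAG-only, lines 1 and 2, and the treated group was FLAG-ZBTB24, lines 5 and 11. All 4 lines had been made by lentiviral infection of HCT116 and kept under puromycin at 0.75 µg/mL, and each had been grown from a single cell by limiting dilution. The knockdown and ChIP-seq samples set beside them below are labelled with the same puromycin dose. Clones of HCT116 can differ from each other, so with 2 clones a side the effect of the added protein and differences between the clones cannot be told apart. The authors' deposited table gives 1 pooled FPKM value per group (fragments per kilobase of transcript, scaled to the mapped fragments). Values per line were not analysed here, so no standard deviation is given and the depth behind each value is unknown. The only test is the authors' own, given as a p and an adjusted q per locus.

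Every listed locus had a log2 fold change, FLAG-ZBTB24 over FLAG-only, of at least 0.50 in size and a larger value of at least 0.577 FPKM, so the table leaves out loci that differ less. Of the 1754 loci, 830 had higher and 924 (52.7%) lower values in FLAG-ZBTB24. The median log2 fold change was 0.73 among the higher loci and -0.71 among the lower ones, and -0.51 over all. A fold of at least 2 was seen at 433 loci, of which 107 lay under 1 FPKM in both groups. Below, a locus rose or fell where q was under 0.05. By that rule 4 loci rose, 0.228% of those listed, and 6 fell, 0.342%. An unadjusted p under 0.05 was reached by 174 loci (9.92%), of which 61 were higher (3.48%) and 113 lower (6.44%). A large fold alone did not mark the called loci: the collagenase gene MMP1 went from 6.13 to 0.034 FPKM, the most negative log2 fold change of the list at -7.50, with p = 0.238 in the authors' deposited table.

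The labelled gene was checked first. ZBTB24 shares its locus (hg19 chr6:109765246-109804440) with its neighbour MICAL1, which encodes an actin-oxidising enzyme, and the value cannot be split between them. The locus rose from 17.8 FPKM in FLAG-only to 155 FPKM in FLAG-ZBTB24, 8.71-fold (log2 fold change 3.12, q = 0.0192 in the authors' deposited table). Reads of the added copy and of the cells' own gene cannot be told apart in this value. No other gene of the list of ICF syndrome and DNA methylation genes was listed, and none of CDCA7, HELLS, DNMT1, DNMT3A or DNMT3B was among the loci.

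**Figure D1:**
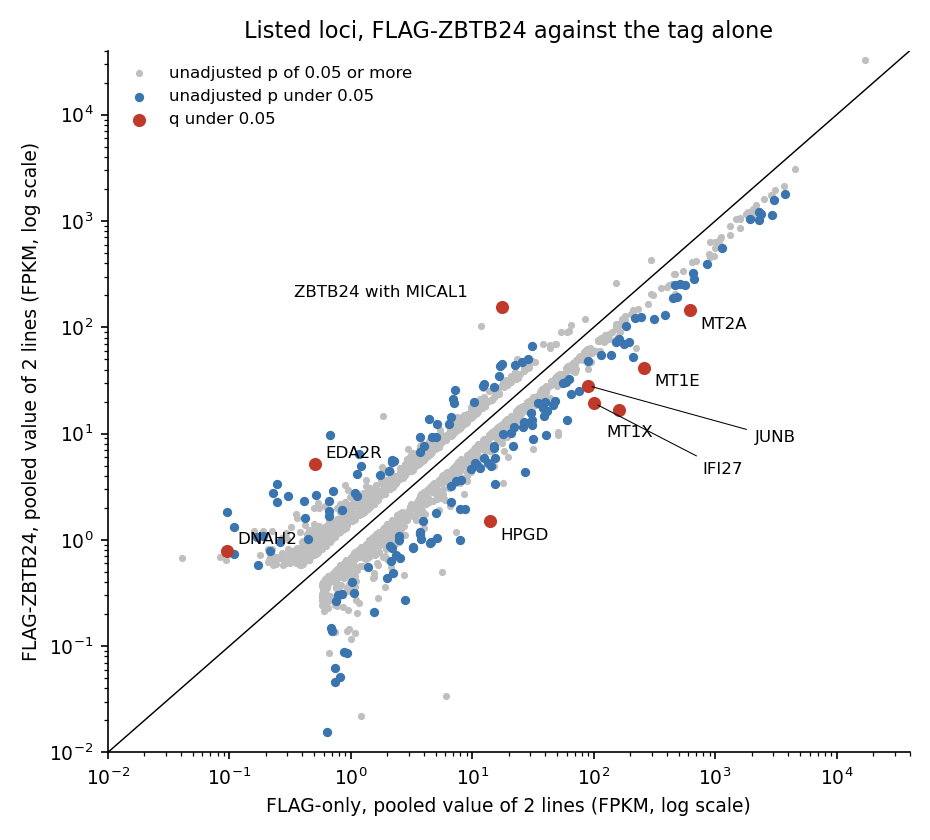
Pooled FPKM of each listed locus in the FLAG-only lines (x axis, log scale) and the FLAG-ZBTB24 lines (y axis, log scale), with the line of equal values. Grey points have an unadjusted p of 0.05 or more, blue points a p under 0.05 and red points a q under 0.05 in the authors' deposited table; the 10 loci of chromosome Y are not drawn, and the empty band along the diagonal comes from the floor of 0.50 on the log2 fold change. The locus of ZBTB24 stands above the line at 17.8 and 155 FPKM, and the 3 metallothionein genes stand below it.

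The largest group among the loci that fell was the metallothioneins, small cysteine-rich proteins that bind zinc and copper and whose genes are switched on by metals. Of 4 listed members, 3 fell, against 0.342% of all listed loci, and all 4 had lower values, against 52.7%. MT1X (chr16:56716382-56718108) fell from 162 to 16.7 FPKM, to 10.3% of the FLAG-only level (log2 fold change -3.28). MT1E (chr16:56659585-56661024) fell from 261 to 41.6 FPKM, to 16% (-2.65), and MT2A (chr16:56642478-56643409) from 618 to 145 FPKM, to 23.4% (-2.10). Each of these had q = 0.0192 in the authors' deposited table. MT1F, the fourth member, had 7.94 and 3.47 FPKM (-1.20, p = 0.112 in the authors' deposited table) and did not pass. All 4 genes lie in 1 cluster on chromosome 16 and resemble each other in sequence, so reads could be shared among them. The median log2 fold change of the 4 was -2.37, against -0.51 over all listed loci. Of the zinc transporters only SLC30A1, a zinc exporter gene induced by zinc, was listed, at 13.8 and 9.76 FPKM (-0.50, p = 0.266 in the authors' deposited table).

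The MT2A and MT1X promoters are shown because the genes are textbook bearers of metal response elements, short sequences bound by the zinc-sensing factor MTF1. Both are the 250 bases before the transcript start in RefSeq (GRCh38.p14), plus strand, chr16:56608334-56608583 for MT2A and chr16:56682220-56682469 for MT1X. Capitals mark every match to the core letters TGCGCNC or TGCACNC on either strand, 7 in MT2A and 4 in MT1X.
MT2A: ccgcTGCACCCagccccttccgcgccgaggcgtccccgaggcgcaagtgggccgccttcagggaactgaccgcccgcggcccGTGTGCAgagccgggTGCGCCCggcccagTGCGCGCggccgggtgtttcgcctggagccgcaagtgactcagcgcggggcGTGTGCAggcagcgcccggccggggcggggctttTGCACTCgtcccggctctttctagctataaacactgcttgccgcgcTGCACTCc
MT1X: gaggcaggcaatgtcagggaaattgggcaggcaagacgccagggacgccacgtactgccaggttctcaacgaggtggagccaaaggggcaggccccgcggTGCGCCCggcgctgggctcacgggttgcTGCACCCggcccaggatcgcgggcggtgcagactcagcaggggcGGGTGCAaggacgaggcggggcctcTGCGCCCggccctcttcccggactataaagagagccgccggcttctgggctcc
Matches of a core this short are common: 24.7% of 27305 promoters of the same length held at least 1, as did 29.9% of the 1211 listed single-symbol loci found in the table, 27.1% of the higher and 32.1% of the lower. MT1E and MT1F had no entry.

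The other loci that fell belong to different groups. HPGD (chr4:175411328-175444049), which encodes the enzyme that inactivates prostaglandins and is often lost in colorectal tumours, fell from 14.0 to 1.5 FPKM, to 10.8% (-3.22, q = 0.0192 in the authors' deposited table). IFI27 (chr14:94577079-94583036), an interferon-induced gene, fell from 101 to 19.3 FPKM, to 19.1% (-2.39, q = 0.0192 in the authors' deposited table). JUNB (chr19:12902310-12904571), a subunit of the AP-1 transcription factor, fell from 89.8 to 28.3 FPKM, to 31.5% (-1.67). Its q of 0.0498 in the authors' deposited table is just under the threshold.

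Of the loci that rose, besides that of ZBTB24, EDA2R had the largest fold. EDA2R (chrX:65814983-65859140) encodes the receptor of ectodysplasin A2, a member of the TNF receptor superfamily and a p53 target, and went from 0.506 to 5.20 FPKM, 10.3-fold (3.36, q = 0.0192 in the authors' deposited table). DNAH2 (chr17:7620672-7737062), a heavy chain of axonemal dynein, rose from 0.0959 to 0.790 FPKM (3.04, q = 0.0192 in the authors' deposited table), so its level stayed under 1 FPKM in both groups. The remaining locus that rose lies on chromosome Y, where 8 of 10 listed loci had higher values.

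By unadjusted p, the leading higher loci of at least 1 FPKM were DYNC2H1, the motor of transport inside cilia (0.246 and 3.38 FPKM, p = 0.00065), SUSD2 (0.411 and 2.34, p = 0.0011), the shared locus of AADAC and SUCNR1 (7.16 and 25.6, p = 0.00115) and DDR2, a collagen receptor (0.302 and 2.60, p = 0.00135, all in the authors' deposited table). They were followed by the guidance ligand gene SLIT2 (0.424 and 1.6, p = 0.0025), the calcium-dependent kinase gene CAMK4 (0.246 and 2.25, p = 0.003), the keratin-associated KRTAP2 locus (6.89 and 21.4, p = 0.0034), SPARC (0.660 and 2.30, p = 0.00505) and the SNHG17 locus, a host of small nucleolar RNAs (16.8 and 43.6, p = 0.00775, all in the authors' deposited table). Of these 9 loci, 6 stood under 1 FPKM in FLAG-only. The leading lower loci that did not pass were LINC00698 (27.4 and 4.38 FPKM, p = 0.00065), the neutrophil chemokine gene CXCL8 (7.92 and 1.93, p = 0.0011), the germline gene TEX19 (8.74 and 1.97, p = 0.0012), the protease inhibitor gene SLPI (15.4 and 3.37, p = 0.00135), the vasodilator peptide gene ADM (75 and 25.4, p = 0.00145) and RMRP, the RNA of an RNA-processing enzyme (59.7 and 13.3, p = 0.0015, all in the authors' deposited table). In FLAG-only these stood between 7.92 and 75 FPKM.

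**Figure D2:**
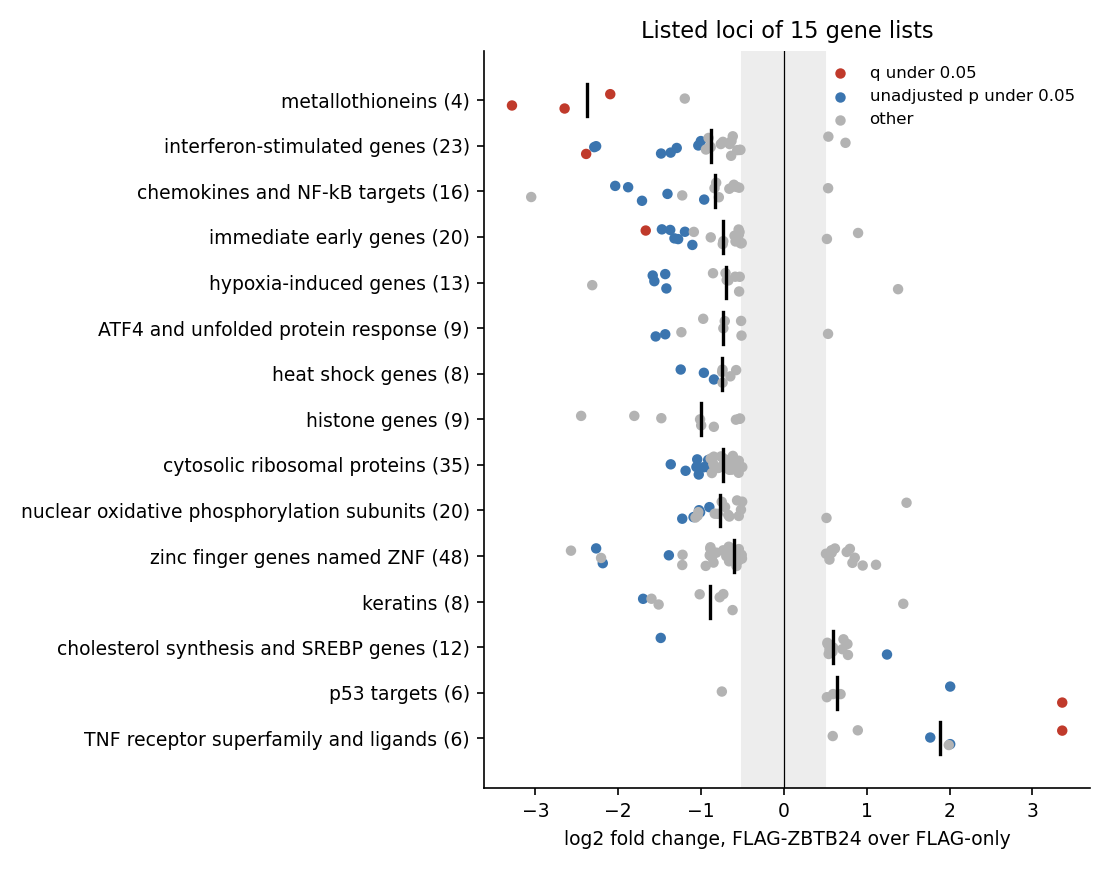
Log2 fold change, FLAG-ZBTB24 over FLAG-only (x axis), of each listed locus of 15 gene lists, with the number of loci in parentheses. Red points have a q under 0.05, blue points an unadjusted p under 0.05 in the authors' deposited table, black bars are list medians, and no locus can fall in the shaded band because of the floor of 0.50. All 4 metallothioneins and all 35 cytosolic ribosomal protein loci lie to the left of 0, while 11 of 12 cholesterol synthesis and SREBP loci lie to the right.

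Interferon-stimulated genes, the antiviral genes downstream of interferon receptors, had lower values at 21 of 23 listed loci, with a median log2 fold change of -0.88, or -0.53 with a pseudocount of 1 FPKM. Of all listed loci 52.7% were lower. IFI27 fell, and 8 of the 23, IFI27 included, were lower at an unadjusted p under 0.05, against 6.44% of all listed loci. IFI44, whose protein is induced by virus infection, had 5.09 and 1.04 FPKM (-2.29, p = 0.00155 in the authors' deposited table). OAS1, which makes the messenger that activates RNase L, had 4.47 and 0.93 FPKM (-2.27, p = 0.00265 in the authors' deposited table). IFI6 had 31.2 and 12.1 FPKM (-1.37, p = 0.0178), BST2, which tethers budding virus, 39.4 and 19.7 (-1.0, p = 0.0228), and IRF7, a factor that amplifies the response, 11.7 and 4.75 (-1.29, p = 0.0265, all in the authors' deposited table). The RNA sensor gene IFIH1 had 6.64 and 3.25 FPKM (-1.03, p = 0.0303 in the authors' deposited table), and NMI had 5.04 and 1.80 FPKM (-1.48, p = 0.0246 in the authors' deposited table). The 2 members with higher values were STAT2 (12.5 and 18.1 FPKM, p = 0.252) and EPSTI1 (0.526 and 0.881 FPKM, p = 0.273 in the authors' deposited table), and STAT2 is itself part of the factor that drives the others. APOBEC3G (12.2 and 27.9 FPKM, p = 0.009) and APOBEC3F (10.4 and 19.6, p = 0.0303, both in the authors' deposited table), antiviral genes outside the list, were higher. Other genes outside the list were not counted.

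Promoters of IFI27, IFI44 and IFIH1 are shown because most lower loci of the group hold the core of the interferon-stimulated response element, which is GAAA, any 2 bases and GAAA again. They are the 250 bases before the RefSeq transcript start (GRCh38.p14), at chr14:94110486-94110735 on the plus strand for IFI27, chr1:78649539-78649788 on the plus strand for IFI44 and chr2:162318685-162318934 on the minus strand for IFIH1, and capitals mark every match on either strand.
IFI27: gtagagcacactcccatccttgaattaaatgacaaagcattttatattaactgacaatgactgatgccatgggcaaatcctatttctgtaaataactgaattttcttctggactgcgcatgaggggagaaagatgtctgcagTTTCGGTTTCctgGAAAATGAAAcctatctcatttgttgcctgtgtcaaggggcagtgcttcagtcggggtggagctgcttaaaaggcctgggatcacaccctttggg
IFI44: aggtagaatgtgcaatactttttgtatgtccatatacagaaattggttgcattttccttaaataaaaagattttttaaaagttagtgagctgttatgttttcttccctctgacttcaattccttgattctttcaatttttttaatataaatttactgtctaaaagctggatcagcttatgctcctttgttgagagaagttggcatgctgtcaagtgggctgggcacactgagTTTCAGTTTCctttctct
IFIH1: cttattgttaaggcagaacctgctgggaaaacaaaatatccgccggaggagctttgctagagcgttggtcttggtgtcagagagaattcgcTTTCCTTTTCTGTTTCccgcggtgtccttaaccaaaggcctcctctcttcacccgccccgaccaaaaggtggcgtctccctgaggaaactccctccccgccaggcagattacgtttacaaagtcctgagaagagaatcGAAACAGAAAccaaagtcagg
IFI27 held 2 matches, IFI44 held 1 close to the start, and IFIH1 held 3, of which a pair overlaps. Of the lower interferon-stimulated loci with a promoter in the table, 11 of 18 held the letters (61.1%), against 3.07% of all 27305 promoters. Interferon-stimulated genes are known to carry this element, so their high share is not a result about FLAG-ZBTB24. The share was not computed for members that were higher or not listed. Over the whole list the share was 3.59% for lower loci (24 of 669) and 1.48% for higher loci. It was 8.24% for the 85 lower loci at an unadjusted p under 0.05, or 7 loci. These counts include the interferon-stimulated loci themselves, which gave 11 of the 24 matches. Among the 7 were IFI27, IFI44, IFIH1, IFI6, BST2 and NMI. OAS1 had no match in this window, and IRF7 had no entry.

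Chemokines and NF-kB targets had lower values at 15 of 16 listed loci (median -0.83), against 52.7% of all listed loci. Of these, 5 had an unadjusted p under 0.05, against 6.44% of all, and 0 passed the threshold. Beside CXCL8, these were BIRC3, an inhibitor of apoptosis (3.75 and 1.14 FPKM, p = 0.0026), CXCL1, another neutrophil chemokine (3.79 and 1.03, p = 0.0199), LCN2, an iron-sequestering protein (15.4 and 5.83, p = 0.0244), and NFKBIA, the inhibitor that NF-kB itself induces (22.3 and 11.4 FPKM, p = 0.0345, all in the authors' deposited table). Immediate early genes, which growth factor signalling switches on within minutes, had lower values at 18 of 20 listed loci (median -0.73), beside the same 52.7%. JUNB fell, and 7 loci in all were lower at an unadjusted p under 0.05, beside 6.44% of all listed loci. FOS, the partner of JUN proteins in AP-1, had 65.2 and 23.5 FPKM (-1.47, p = 0.016), ZFP36, which destabilises cytokine mRNAs, 40.9 and 16.4 (-1.32, p = 0.0055), and KLF4 31.0 and 13.5 FPKM (-1.19, p = 0.00855, all in the authors' deposited table). The 2 members with higher values were CTGF (2.53 and 4.71 FPKM, p = 0.114) and PHLDA1 (84.3 and 121 FPKM, p = 0.202 in the authors' deposited table).

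Stress-response lists also lay on the lower side, with no member past the threshold, and their counts stand beside 52.7% of all listed loci lower and 6.44% lower at an unadjusted p under 0.05. Hypoxia-induced genes were lower at 12 of 13 loci (median -0.70), 4 of them at an unadjusted p under 0.05. These were ADM, DDIT4, an inhibitor of mTORC1 (196 and 72.5 FPKM, p = 0.00505), ANGPTL4 (38.8 and 14.5, p = 0.00705) and NDRG1 (388 and 129 FPKM, p = 0.0149, all in the authors' deposited table). CA12, a carbonic anhydrase gene, was the exception at 0.278 and 0.724 FPKM (p = 0.0592 in the authors' deposited table). Heat shock genes were lower at 8 of 8 loci, 3 at an unadjusted p under 0.05, namely CHORDC1 (47.9 and 20.2 FPKM, p = 0.00405), the shared HSPA1A and HSPA1B locus (34.8 and 19.4, p = 0.042) and HSPH1 (59.3 and 30.4 FPKM, p = 0.0471, all in the authors' deposited table). Of the ATF4 and unfolded protein response list, 8 of 9 loci were lower, led by CHAC1, a glutathione-degrading enzyme (14.4 and 4.91 FPKM, p = 0.0045 in the authors' deposited table), while asparagine synthetase (ASNS) was higher at 47.7 and 69.0 FPKM (p = 0.203 in the authors' deposited table). NRF2 targets were lower at 5 of 6 loci, 0 at a p under 0.05.

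Few lists lay on the higher side, and their counts stand beside 830 higher loci of the 1754 listed. Genes of cholesterol synthesis and its regulator SREBP had higher values at 11 of 12 loci (median 0.59), none of which rose by the q rule and 1 of which had an unadjusted p under 0.05, against 3.48% of all listed loci. That was STARD4, a cholesterol carrier (12.4 and 29.4 FPKM, p = 0.0236 in the authors' deposited table). The desaturase SCD had 154 and 263 FPKM (p = 0.0785), lanosterol synthase (LSS) 11.4 and 18.8 (p = 0.0854), and the regulator gene SREBF2 itself 28.5 and 46.5 FPKM (p = 0.0855, all in the authors' deposited table). The one lower member was LPIN1, a phosphatidate phosphatase (21.5 and 7.69 FPKM, p = 0.0124 in the authors' deposited table). All 6 listed loci of the TNF receptor superfamily and its ligands were higher (median 1.88, or 0.59 with a pseudocount of 1 FPKM). EDA2R rose, where 0.228% of all listed loci did, and 2 more had an unadjusted p under 0.05, where 3.48% of all were higher at that p: the decoy receptor gene TNFRSF10C, at a shared locus (0.721 and 2.90 FPKM, p = 0.0226), and EDAR, the receptor of ectodysplasin A1 (0.172 and 0.585 FPKM, p = 0.0279, both in the authors' deposited table). Of the p53 targets 5 of 6 were higher, including EDA2R and TNFRSF10C from that family. The others were TP53INP1 (8.44 and 13.6 FPKM, p = 0.0925), ZMAT3 (6.97 and 10.5 FPKM, p = 0.17) and ACER2 (4.34 and 6.21 FPKM, p = 0.323, all in the authors' deposited table). The lower member was ABCA12 (1.33 and 0.791 FPKM, p = 0.248 in the authors' deposited table). RPS27L, a p53 target outside the list, was also lower (104 and 59.6 FPKM, p = 0.06945 in the authors' deposited table). The 5 listed dynein heavy chains were split, with DNAH2 and DYNC2H1 high and DNAH5 low (0.823 and 0.0515 FPKM, p = 0.0332 in the authors' deposited table).

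The most abundant transcripts lay almost wholly on the lower side. Of 115 loci whose larger value was at least 100 FPKM, 108 (93.9%) were lower, against 64.7% of 436 loci from 10 to 100 FPKM, 44.9% of 926 from 1 to 10 and 42.6% of 277 under 1. Cytosolic ribosomal protein genes made up a large part, with 35 of 35 listed loci lower (median -0.73), 8 at an unadjusted p under 0.05, against 6.44% of all listed loci, and 0 past the threshold. RPS27 had 3729 and 1794 FPKM (-1.06, p = 0.0152), RPL39 2403 and 1164 (-1.05, p = 0.0149) and RPS29 2923 and 1135 FPKM (-1.37, p = 0.0263, all in the authors' deposited table). Nuclear genes of oxidative phosphorylation were lower at 18 of 20 loci (median -0.77), 5 at an unadjusted p under 0.05, against the same 6.44%. Among them were UQCRB of complex III (671 and 287 FPKM, p = 0.0115), NDUFB3 of complex I (116 and 54.4, p = 0.0138) and COX7B of complex IV (661 and 325 FPKM, p = 0.0192, all in the authors' deposited table). Mitochondrial ribosomal protein genes were lower at 5 of 5 loci, 0 at a p under 0.05. Histone genes, which were not abundant (median 1.12 FPKM in FLAG-only), were lower at 9 of 9, 0 at a p under 0.05. The histone median log2 fold change was -1.0, or -0.41 with a pseudocount of 1 FPKM. The counts of all these lists stand beside 52.7% of all listed loci lower. The highest value of all listed loci ran the other way, 17124 and 32687 FPKM at the PVT1 locus (p = 0.394 in the authors' deposited table). That locus holds the microRNA genes MIR1204 and MIR1206 as well, and its value cannot be split among them.

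Direction moved with transcript length. Over 1654 single-symbol loci with a transcript in the authors' merged annotation, the median of the longest transcript was 3244 nt for higher and 2217 nt for lower loci, and the median number of exons was 8 and 5. The share with a lower value was 83.8% at up to 500 nt (57 of 68 loci) and 62.1%, 60.3%, 54.6% and 39.1% in the classes up to 1000, 2000, 4000 and 8000 nt. It was 30.1% above 8000 nt (28 of 93). Among loci of at least 10 FPKM the shares went from 94.9% in the shortest class to 14.3% in the longest, which held 21 loci. Ribosomal and oxidative phosphorylation genes are short, with median longest transcripts of 577 and 766 nt. Without both lists the shares were 79.2%, 57.4%, 59.4%, 54.2%, 39.0% and 30.1% from the shortest to the longest class. The part of transcript length in the counts of these lists was not tested. Metallothioneins are short too (median 451 nt), whereas the interferon-stimulated list had a median of 3014 nt, above that of the lower loci as a whole. Lists on the higher side were long, above the median of the higher loci. Their medians were 4555.5 nt for cholesterol synthesis and SREBP genes, 4559 nt for p53 targets and 3570.5 nt for the TNF receptor superfamily. The part of length in the counts of those lists was not tested either.

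**Figure D3:**
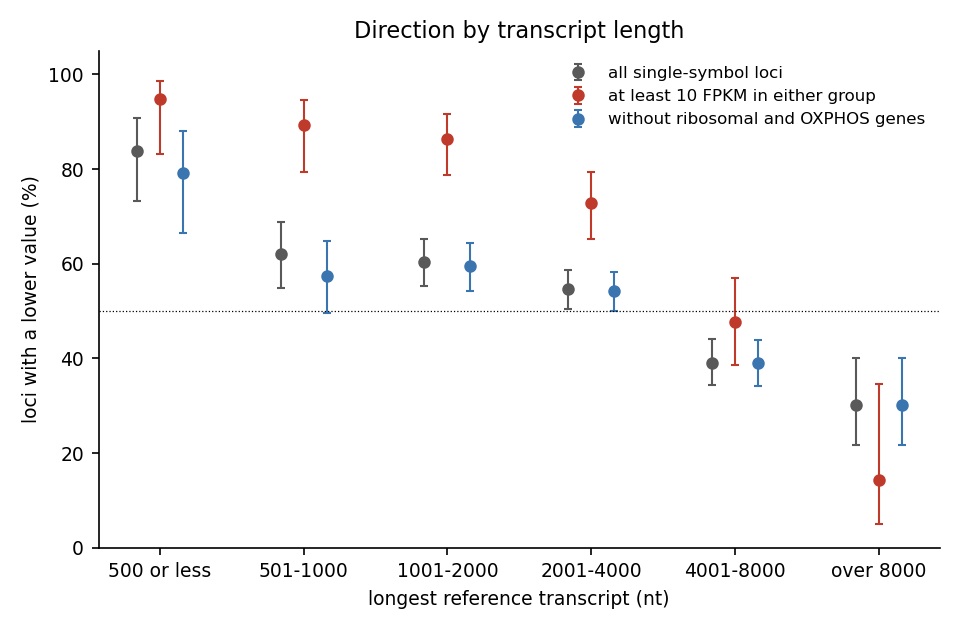
Share of listed single-symbol loci with a lower value in FLAG-ZBTB24 (y axis, percent) by length of the longest transcript in the authors' merged annotation (x axis, nt), with 95% Wilson intervals that cover counting error only. Grey points are all 1654 loci, red points those of at least 10 FPKM in either group and blue points those without ribosomal and oxidative phosphorylation (OXPHOS) genes; in the grey series the share falls from 83.8% to 30.1%.

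Zinc finger genes named ZNF, many of which carry a KRAB repressor domain, had lower values at 37 of 48 listed loci (median -0.60), against 52.7% of all listed loci. Those at an unadjusted p under 0.05 numbered 3, a share no higher than the 6.44% of all listed loci. They were ZNF585B (2.21 and 0.486 FPKM, p = 0.00985), ZNF493 (0.786 and 0.300 FPKM, p = 0.0462) and ZNF675 (4.60 and 0.955 FPKM, p = 0.047, all in the authors' deposited table), all on chromosome 19. Chromosome 19 had the highest share of lower loci of any chromosome, 91 of 128 (71.1%, 95% Wilson interval 62.7 to 78.2). Of its listed ZNF genes 22 of 28 were lower, and of its other loci 69 of 100. Over all chromosomes, 113 of the 174 loci at an unadjusted p under 0.05 were lower (64.9%). All 8 such loci of chromosome 19 were lower, as were all 7 of chromosome 14 and all 4 of chromosome 9. So were all 4 of chromosome 16, with MT1X, MT1E and MT2A of 1 cluster among them, and both of chromosome 21. All 4 of chromosome 22, all 3 of chromosome Y and the 1 of chromosome 18 were higher. These are the chromosomes with such loci on 1 side only, and most hold few. Of the other ZBTB family genes, ZBTB21 (7.79 and 5.24 FPKM) and ZBTB47 (1.91 and 1.31 FPKM) were listed lower, with p of 0.194 and 0.839 in the authors' deposited table. No HOX gene and no mitochondrially encoded gene was listed.

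Markers of cell types were read in the same table. Only listed markers are counted, so the counts do not describe whole marker sets. They stand beside 830 higher and 924 lower loci of the 1754 listed. Of colon epithelium markers 3 were listed, all higher: KRT20 (0.455 and 1.24 FPKM, p = 0.0958), CDH1 (29.2 and 42.5, p = 0.169) and HNF4A (0.384 and 0.683 FPKM, p = 0.466, all in the authors' deposited table). The 3 listed mesenchymal markers, SPARC, FBN1 and VIM, were higher and at most 2.30 FPKM in either group. SPARC had an unadjusted p under 0.05, as did 3.48% of all listed loci on the higher side. HNF4A, SPARC and FBN1 were not in the marker sets of the written design, whereas KRT20, CDH1 and VIM were. Of blood cell markers CD68 (18.0 and 3.41 FPKM, p = 0.19) and the HBA1 and HBA2 locus (0.738 and 0.136 FPKM, p = 0.522 in the authors' deposited table) were listed lower, and no endothelial marker was listed. Keratins were lower at 7 of 8 loci (median -0.90, or -0.47 with a pseudocount of 1 FPKM), beside 52.7% of all listed loci. One of them had an unadjusted p under 0.05, beside 6.44% of all, KRT16 at 2.35 and 0.725 FPKM (p = 0.029 in the authors' deposited table), with KRT20 as the exception. The 3 listed collagens, COL12A1, COL6A3 and COL4A3, were higher, 0 at a p under 0.05.

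Binding of FLAG-ZBTB24 itself came from the authors' merged ChIP-seq peak list of lines 5, 7 and 11. A promoter peak was one with its midpoint no more than 1000 bp from a transcript start. Of the 1754 loci 107 had one (6.10%, 95% Wilson interval 5.07 to 7.32), against 982 of 26313 symbols of the annotation (3.73%), which include genes that are not expressed. The share was 6.99% of higher loci (58 of 830) and 5.30% of lower loci (49 of 924). It was 4.60% of the loci at an unadjusted p under 0.05 (8 of 174). Of the 10 loci that passed, 1 had a promoter peak, and that was the ZBTB24 locus itself (authors' score 8.03, peak midpoint 514 bp from a start). The nearest peak midpoint lay 634534 bp from a start of MT1X, 691331 bp from MT1E, 708438 bp from MT2A, 84654 bp from IFI27, 41108 bp from JUNB and 32271 bp from HPGD. The peak list holds 0 peaks on chromosomes X and Y, so EDA2R and the passing locus of chromosome Y could not be assessed. The 54 listed loci of chromosome X and the 10 of chromosome Y remain in the shares above.

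Among loci with the strongest promoter peaks, the values went both ways. OSTC, a subunit of the oligosaccharyltransferase and a reported ZBTB24 target, had the highest score (37.1, peak at chr4:109571250-109571861) and 108 and 74.9 FPKM (-0.52, p = 0.205 in the authors' deposited table). C22orf34 (score 35.7) had 8.50 and 5.32 FPKM, RPL32P3 (34.7) had 3.06 and 4.80, and GCLM, a subunit of the enzyme that starts glutathione synthesis (30.1), had 11.4 and 7.15 FPKM, with p of 0.438, 0.181 and 0.117 in the authors' deposited table. HPD, the tyrosine-degrading dioxygenase gene (score 25.6), had 1.18 and 6.48 FPKM (2.46, p = 0.0081 in the authors' deposited table). IFIH1, the RNA sensor gene (score 25.9), had 6.64 and 3.25 FPKM. The other bound loci at an unadjusted p under 0.05 were RTTN (17.7 and 44.7 FPKM), ACVR1C (0.657 and 1.67) and RAB3B (6.45 and 12.2 FPKM) on the higher side. On the lower side they were ADGRF1 (15.2 and 7.64 FPKM) and SHFM1 (221 and 121 FPKM), so 5 bound loci were higher, with that of ZBTB24, and 3 lower. The letters CAGGACCT, part of a reported ZBTB24 recognition sequence, were in 1.30% of all promoters and in 1.29% of higher and 0.747% of lower loci. They were in 1 of 74 promoters with a peak. Only the 250 bases before a start were searched, while a promoter peak can lie up to 1000 bp from a start. The sequence at the peaks was not read, so this count does not describe the bound sites.

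Peaks of FLAG-DNMT3B inside the gene, from the authors' merged list for 2 FLAG-DNMT3B lines, were present at 363 loci (20.7%), 21.9% of higher loci (182 of 830) and 19.6% of lower loci (181 of 924). Gene-body DNMT3B is known to follow transcription through the histone mark H3K36me3. The shares lay further apart in a subset chosen after seeing the data: among loci of at least 10 FPKM, 62.7% of higher loci (101 of 161) and 34.9% of lower loci (136 of 390) had such a peak. The higher loci of this subset were also longer, with a median locus of 65289 bp against 22362 bp, and the part of length in this difference was not tested.

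A knockdown design, with a hairpin against ZBTB24 (shZBTB24, 3 libraries) beside a non-targeting one (shNT, 3 libraries), has a table of its own and shares no control with the FLAG lines. ZBTB24 itself is not among the loci listed there, so its lowering by the hairpin is not shown by that table. It lists 1965 loci, of which 97.0% have an unadjusted p under 0.05, so the lists were not made alike. In all, 372 loci were in both tables, a share of 21.2% of the FLAG-ZBTB24 list and 18.9% of the knockdown list. Of these, 215 (57.8%, 95% Wilson interval 52.7 to 62.7) lay on opposite sides, 139 lower with FLAG-ZBTB24 and higher with the knockdown and 76 the reverse. A further 58 were higher and 99 lower in both. Over these 372 loci Pearson's r of the log2 fold changes was -0.04 and Spearman's rho -0.07, a description across loci that are not independent. Among 59 loci at an unadjusted p under 0.05 in both, 35 lay on opposite sides and 24 on the same side, 22 of them lower in both.

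**Figure D4:**
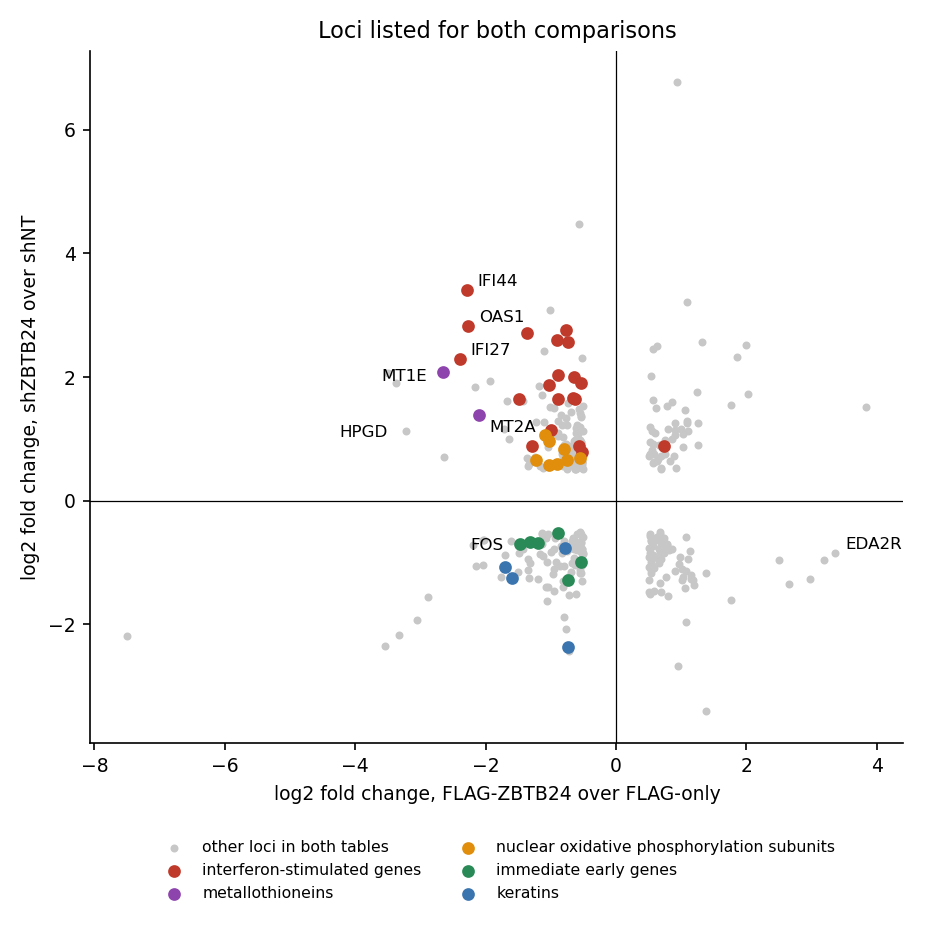
Log2 fold change of FLAG-ZBTB24 over FLAG-only (x axis) and of shZBTB24 over shNT (y axis) for loci listed in both of the authors' deposited tables, with 5 gene lists in colour. Interferon-stimulated, metallothionein and oxidative phosphorylation loci lie in the upper left, lower with FLAG-ZBTB24 and higher with the knockdown, except 1 interferon-stimulated locus, while immediate early and keratin loci lie in the lower left.

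The gene groups parted in this view. Of the interferon-stimulated genes, 20 were in both tables and 19 lay on opposite sides, and the 8 at an unadjusted p under 0.05 in both were all lower with FLAG-ZBTB24 and higher with the knockdown. IFI44 had 5.09 and 1.04 FPKM in FLAG-only and FLAG-ZBTB24, beside 2.94 and 31.1 FPKM in shNT and shZBTB24. IFI27 had 101 and 19.3 beside 61.7 and 302 FPKM, and OAS1 had 4.47 and 0.93 beside 3.13 and 22.1 FPKM. EPSTI1 was the exception, higher in both. Both metallothioneins listed for the knockdown rose there: MT1E stood at 18.3 and 77.1 FPKM (log2 fold change 2.08) and MT2A at 114 and 297 FPKM (1.39). HPGD rose with the knockdown as well, from 6.62 to 14.5 FPKM (1.13). With the knockdown IFI44, IFI27, MT1E, MT2A and HPGD each had q = 0.00493 in the authors' deposited table. All 8 oxidative phosphorylation loci in both tables lay on opposite sides, among them UQCRB, NDUFB3, COX7B and NDUFS4 at an unadjusted p under 0.05 in both. By contrast, all 6 immediate early loci in both tables were lower in both, with FOS at 187 and 115, ZFP36 at 234 and 148 and KLF4 at 60.3 and 37.6 FPKM in shNT and shZBTB24. The 4 keratins were also lower in both, as were DDIT4, LPIN1, TEX19, SLPI and CXCL8. Of the cytosolic ribosomal protein loci, only 1 was in both tables, on opposite sides. The knockdown list held 14 such loci, of which 13 were lower and 1 higher with the knockdown (median log2 fold change -0.53).

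The control groups of the tables did not start from like levels, although it is not known whether the tables were normalized together. MT1E stood at 261 FPKM in FLAG-only and 18.3 in shNT, and MT2A at 618 and 114, so the FLAG-ZBTB24 levels of 41.6 and 145 FPKM were nearer to shNT than those of FLAG-only. EDA2R stood at 0.506 FPKM in FLAG-only and 7.68 in shNT, and its FLAG-ZBTB24 level of 5.20 was likewise the nearer. IFI27 ran the other way, at 101 FPKM in FLAG-only, 19.3 in FLAG-ZBTB24 and 61.7 in shNT. HPGD stood at 14.0 FPKM in FLAG-only, 1.5 in FLAG-ZBTB24 and 6.62 in shNT. The PVT1 locus, the highest of the FLAG-ZBTB24 list, stood at 17124 FPKM in FLAG-only but 190 in shNT, and at 20731 in shZBTB24. The part of the FLAG-only clones in these differences was not tested.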

How the data were processed

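Libraries were strand-specific and made from total RNA, per the labels' protocols. Per the submitters' processing notes, the tools were HISAT2, StringTie, Cufflinks and MACS2 and the build was hg19. For their versions, none was given in the sources used here. The authors deposited 1 pooled FPKM value per group and a log2 fold change for each locus. Each locus also has the authors' p-value and q-value, used as deposited. Peaks have 1 deposited score each, of unstated kind.

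Log2 ratios were recomputed from the pooled values with no pseudocount, which differed from the deposited log2 values by at most 1.11e-05. Python 3.11.15 with pandas 2.3.3 and numpy 2.4.6 was used, and the counting was tested on simulated data. The tables hold no values per line, so no test across lines was run here. The ratio of q to p at the smallest p values was not that of an adjustment over the 1754 listed loci alone, so other loci, not analysed here, entered it. Tables were joined by gene symbol. Promoter windows came from RefSeq (GRCh38.p14), matched by symbol for 1211 of 1655 single-symbol loci. Coordinates of loci and peaks are hg19, and none were converted.

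Members and the 39 gene lists were chosen with earlier results of these data known. Named were all loci with q under 0.05, the 12 higher and 12 lower loci of at least 1 FPKM with the smallest p, the 5 highest levels, and up to 4 loci per list. Other names, such as those of the bound loci and of loci in both tables, were chosen after their values were seen. So were MMP1, NFKBIA, STAT2, EPSTI1, APOBEC3G, APOBEC3F, CTGF, PHLDA1, CA12, SREBF2, ACER2, ABCA12 and RPS27L. Levels of genes on chromosome Y are not given.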

Additional observations from a re-analysis of the deposited data

How the results depend on the processing

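With a q threshold of 0.10, with only loci of at least 1 FPKM or with only loci of 1 gene symbol, the counts of loci at q under the threshold, and those at p under 0.05, stayed within 1.5 times the reported ones. With a pseudocount of 1 FPKM, 397 loci were higher and 571 lower by more than 0.5, beside 830 and 924 as listed. With at least 10 FPKM, an alternative added after seeing the data, 161 were higher and 390 lower. With only peaks scoring at or above the median, 66 loci had a promoter peak, beside 107. The share on opposite sides in the knockdown table stayed within its interval. Of 20 lists with 5 or more loci, no median changed sign under the pseudocount or the 1 FPKM minimum. With the pseudocount 6 medians moved by over 1.5 times, all toward 0, among them that of the TNF receptor superfamily (0.59, beside 1.88) and that of the interferon-stimulated genes (-0.53, beside -0.88). With the 1 FPKM minimum, 2 moved: dynein heavy chains (3.78, beside 0.69, on fewer loci) and histone genes (-0.58, beside -1.0). The shares by transcript length among loci of at least 10 FPKM and without ribosomal and oxidative phosphorylation genes were also added after seeing the data.

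No paired analysis was possible because the FLAG-only and FLAG-ZBTB24 lines share no line numbers and their values are pooled. Leaving out each line and the replicate block were therefore not run, and whether 1 clone carries a result was not tested. Depth is unknown, and levels under 1 FPKM are the least certain.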
